A study of Mus musculus with 2 samples.

Results

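The Ms4a genes encode small membrane proteins that cross the membrane several times, and Folr2 encodes folate receptor beta. The members described here are the Ms4a genes Ms4a7, Ms4a6b, Ms4a6c, Ms4a6d, Ms4a4a, Ms4a4c and Ms4a3, together with Folr2, taken by symbol from the table of counts. Of these 8 members 7 had a row among 20034 genes, and Ms4a3 had none, so nothing is said of its level. They were chosen with earlier results on these cells known, in which Ms4a7 and Folr2 led clusters of cells. Their levels are therefore given as a description.

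Counts were analysed for 1 group of cells, wild type induced macrophages (iMac). The series title says that they were made from mouse fibroblasts with c-Myc as the one factor, and the labels give no time point, clone or delivery of the factor. The cells were lifted with EDTA and processed on the DNBelab C4 droplet system. Of 2 libraries in the labels, a cDNA library and an oligo library, neither could be told from the other in the 6837 barcode names, all distinct, so the matrix is 1 sample without replicates. Of the barcodes, 6751 held 500 genes or more with mitochondrial counts of 15% or less, and these had 1001 to 192369 counts each (median 17178). A single sample allows no test, and the 95% intervals given here cover counting error only. As a check of the label, all 12 macrophage markers were at 10 CPM (counts per 1000000 counts) or more, with Csf1r at 146 CPM. Of 9 fibroblast markers 7 had no row, and Pdgfra and Postn were at 0.00624 CPM. Of 6 monocyte markers 5 had a row and 3 reached 10 CPM, Ly6c2 at 35.6, Vcan at 24.0 and Ccr2 between 19.3 and 20.7 CPM (its interval). None of the marker genes listed for neutrophils, B cells, mast cells, T and NK cells or dendritic cells reached 10 CPM. No cells lacking the members by type were thus at hand, and the share of cells that free RNA alone would give was not estimated.

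As background, the family is best known from Ms4a1, which encodes the B cell antigen CD20, and from Ms4a2, the beta chain of the high-affinity IgE receptor of mast cells. Ms4a7, Ms4a6c, Ms4a6d and Ms4a4a are expressed mainly in monocytes and macrophages, and Ms4a3 in progenitors of granulocytes and monocytes. Human MS4A4A binds the beta-glucan receptor dectin-1 in macrophages. Folate receptor beta is held in the membrane by a lipid anchor and is widely used as a marker of resident macrophages.

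The most abundant members were the Ms4a6 genes. Ms4a6c reached 92.3 CPM (90.8 to 93.8), and 3859 cells had a count, or 57.2% (56.0 to 58.3%). Ms4a6d reached 61.3 CPM (60.1 to 62.6) and was found in 51.5% of cells, and Ms4a6b 25.8 CPM (25.0 to 26.6) in 31.2%. These 3 genes were thus found in broad parts of the culture. Ms4a7 was at 19.9 CPM (19.2 to 20.6), near Ms4a6b, but had a count in 853 cells, or 12.6% (11.9 to 13.5%). Folr2 was at 11.8 CPM (11.2 to 12.3), and 495 cells had a count, or 7.33% (6.72 to 7.98%). The remaining members were rare. Ms4a4a was at 1.22 CPM (1.06 to 1.41), from 196 counts in 164 cells, and Ms4a4c at 0.106 CPM with 17 counts, 1 in each of 17 cells. Thus 5 of the 7 members with a row reached 10 CPM, where 33.2% of all genes did. No 2 neighbours in this order had overlapping intervals.

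Which end of a transcript was counted is not given in the sources used here, so the order was also taken per kilobase of annotated exon. On that scale Ms4a6c (45.0 CPM per kb) and Ms4a6d (35.4) stayed highest. Folr2 followed at 7.61 CPM per kb, Ms4a6b at 5.75, Ms4a7 at 4.46, Ms4a4a at 1.46 and Ms4a4c at 0.0605. Folr2 thus stood below Ms4a6b and Ms4a7 by CPM and above them per kilobase, and that part of the order depends on the scale.

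In the 86 barcodes that missed the limits, Ms4a6c had 7 counts, Ms4a6b 3, Ms4a6d 2, Ms4a7 and Ms4a4a 1 each and Folr2 0. These are too few counts to set a level.

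The Ms4a genes lie side by side on chromosome 19 (10962293 to 11640851, GRCm38, GENCODE M21), 19 protein-coding genes over 679 kb. Of these, 14 had a row, 6 reached 1 CPM and 4 reached 10 CPM. All 6 genes at 1 CPM or more lie in the part from Ms4a7 (11321039 to 11336146, minus strand) to Ms4a6d (11586604 to 11604849, minus strand). Between them lie Ms4a4a (11375523 to 11392790, plus strand), Ms4a4c (11404770 to 11427246, plus), Ms4a6c (11469366 to 11482192, plus) and Ms4a6b (11516512 to 11531256, plus). That stretch was not uniformly active. Ms4a4b, which is no member, was at 3.14 CPM there, whereas Ms4a4c and Ms4a4d (0.0249 CPM) sat among higher genes.

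Outside that stretch no gene exceeded 0.137 CPM, the level of Ms4a14. Ms4a1 had 4 counts in 2 cells, and Ms4a2 had no row. The Ms4a3 gene (11629496 to 11640851, minus) closes the cluster. Folr2 lies on chromosome 7 (101839988 to 101857194, minus strand), 1.14 kb from Folr1, which encodes folate receptor alpha and stood at 1.19 CPM. The related membrane protein genes Tmem176b and Tmem176a, on another chromosome, were at 109 and 31.1 CPM.

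**Figure D1:**
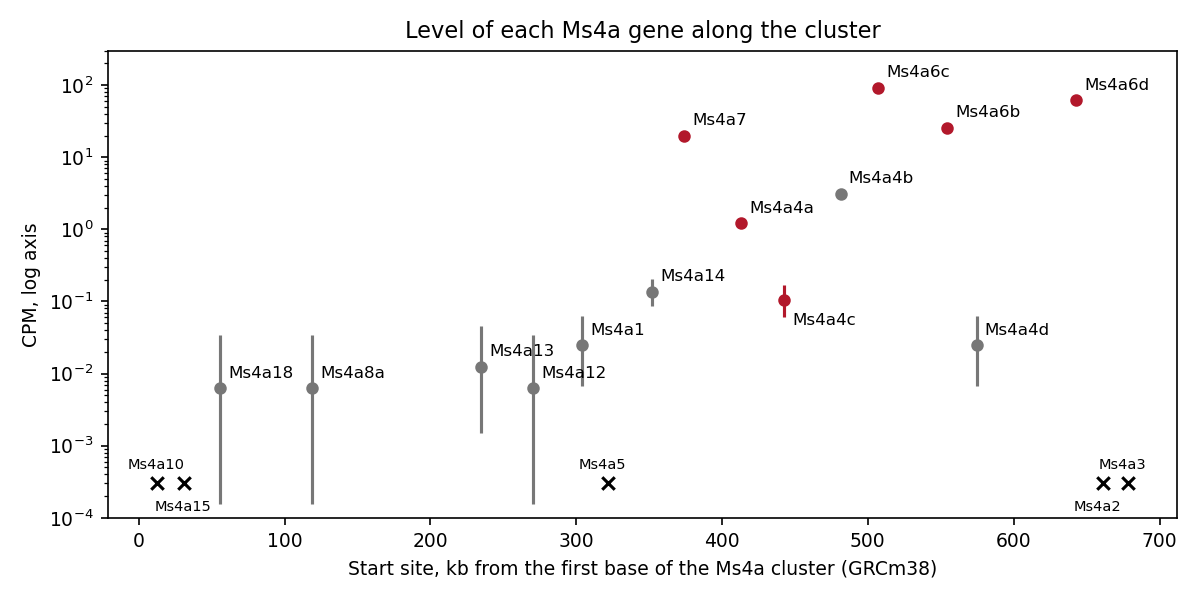
Level of each Ms4a gene (CPM, log axis) against the position of its start site in kb along the cluster on GRCm38, with exact Poisson intervals as bars. Red points are members, grey points other Ms4a genes, and crosses at the bottom mark the 5 genes without a row. Ms4a7, Ms4a6c, Ms4a6b and Ms4a6d are the 4 genes at 10 CPM or more, while Ms4a4c and Ms4a4d in the same stretch are below 1 CPM.

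Part of the reads of close family members could be assigned to either. Of all 50-base words in the annotated transcripts of Ms4a6c, 10.5% also occur in transcripts of other genes, most of them in Ms4a6b. For Ms4a6b the share was 3.57%, for Ms4a6d 2.54% and for Ms4a4c 8.19%, most of the last being shared with Ms4a4b. It was 0.306% for Ms4a7 and 0 for Ms4a4a and Folr2. The values of Ms4a6b, Ms4a6c and Ms4a6d are therefore less certain than those of Ms4a7 and Folr2. Exons of Folr2 overlap an antisense gene, Gm10602, counted at 2.66 CPM, and those of Ms4a6c overlap BE692007 at 0.829 CPM, and whether strand was used in counting is not given in the sources used here.

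The likeness of Ms4a6b and Ms4a6c extends to bases before a RefSeq start site of each gene. For Ms4a6b that site (11518559) and the stretch shown lie inside the annotated gene, which begins at 11516512. The bases before each RefSeq start site (GRCm38.p6, plus strand, own annotated exons left out) are shown because these 2 genes varied together in the cells. Capitals mark runs of at least 12 bases that both stretches hold. Leaving out exons removed 106 bases from Ms4a6b and 2 from Ms4a6c. The second run ends where an annotated exon of Ms4a6b begins. The match goes on into that exon, so the bases of Ms4a6c after this run are not marked although they match. Within the printed stretches the longest run has 24 bases.
Ms4a6b, chr19:11518309-11518452: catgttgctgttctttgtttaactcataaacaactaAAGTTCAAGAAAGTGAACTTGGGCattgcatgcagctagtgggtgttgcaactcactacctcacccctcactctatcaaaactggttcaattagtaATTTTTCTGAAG
Ms4a6c, chr19:11469118-11469365: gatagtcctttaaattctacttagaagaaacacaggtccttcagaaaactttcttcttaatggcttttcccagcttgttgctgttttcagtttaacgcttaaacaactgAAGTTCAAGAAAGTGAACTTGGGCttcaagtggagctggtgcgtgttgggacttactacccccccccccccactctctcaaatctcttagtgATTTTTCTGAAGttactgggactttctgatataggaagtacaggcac

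Both stretches hold none of 6 motifs searched on both strands, which were GAGGAA (the core bound by PU.1), TTGCNNCAA (C/EBP), TGCTGAC (bound by MAF factors), CACGTG (the E-box bound by Myc), TGANTCA (AP-1) and the IRF motif (GAAA repeated after any 2 bases). The search covered the 250 bases upstream of 9 start sites of 7 members in the RefSeq table, in which Ms4a6d has no entry. Ms4a7 and Folr2 each have a second start site in this table, downstream of the first and inside the gene, and before both of these lies 1 match to TGANTCA. These sequences are shown because the 2 genes were found in the same cells, with the match in capitals (both minus strand, printed 5′ to 3′).
Ms4a7, chr19:11334696-11334945: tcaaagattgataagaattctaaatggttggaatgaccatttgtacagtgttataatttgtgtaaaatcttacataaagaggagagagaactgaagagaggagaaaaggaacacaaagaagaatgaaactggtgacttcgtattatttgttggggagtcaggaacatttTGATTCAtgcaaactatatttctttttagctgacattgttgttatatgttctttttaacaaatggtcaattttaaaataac
Folr2, chr7:101845332-101845581: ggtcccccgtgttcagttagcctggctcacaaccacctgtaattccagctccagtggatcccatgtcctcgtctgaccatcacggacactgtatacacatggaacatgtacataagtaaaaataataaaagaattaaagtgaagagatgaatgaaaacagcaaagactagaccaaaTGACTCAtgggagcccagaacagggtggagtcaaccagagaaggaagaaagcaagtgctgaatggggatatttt

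The match begins 81 bases before the start site in Ms4a7 and 74 bases before it in Folr2. Of 32851 upstream windows of that length in the table, 6.75% hold such a match. The windows before the first start sites of Ms4a7 and Folr2 hold none of the 6 motifs. The remaining matches were GAGGAA before Ms4a4c, which 23.3% of windows hold, and TTGCNNCAA before Ms4a3, which 1.74% hold. Which start site was used cannot be read from counts per gene.

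Ms4a7 and Folr2 were concentrated in few cells with many counts. Had every cell held Ms4a7 at the same 19.9 CPM, a count would have been found in 2176 cells at these depths, and 853 had one, a ratio of 0.392. For Folr2 the ratio was 0.334, with 495 cells where 1482 would be found. The median of this ratio over 10942 genes at 1 CPM or more was 0.904, and 0.165% of these genes lay below Ms4a7 and 0.0914% below Folr2. A ratio of 0.5 or less occurred in 0.356% of genes, Ms4a7 and Folr2 among them. The ratios of the other members lay nearer the median, with 0.820 for Ms4a6b, 0.844 for Ms4a6c, 0.860 for Ms4a4a and 0.874 for Ms4a6d.

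The counts per cell show the same. Of the 853 cells with Ms4a7, 445 had 1 count, 144 had 2 and 264 had 3 or more, and the highest cell had 61. The 83 cells highest in Ms4a7, or 1.23% of all cells, held 50% of its counts. For Folr2 that took 56 cells (0.830%), with up to 58 counts in a cell. For Ms4a6b, of nearly the level of Ms4a7, it took 495 cells (7.33%), and the highest cell had 12 counts. For Ms4a6c and Ms4a6d it took 695 and 731 cells, with at most 36 and 29 counts.

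Detection rose with depth in all 5 members at 10 CPM or more, but not to the same extent. Cells were parted into 10 equal groups by their total counts. In the shallowest group, with a median of 1362.5 counts, Ms4a6c had a count in 12.3% of cells, Ms4a6d in 6.80%, Ms4a6b in 3.40%, Folr2 in 1.33% and Ms4a7 in 1.18%. In the deepest, with a median of 67623 counts, the shares were 91.0% for Ms4a6c, 91.7% for Ms4a6d and 64.6% for Ms4a6b. For Ms4a7 the share there was 25.8%, where a single level in all cells would give 75.4%, and for Folr2 it was 16.0%, where it would give 56.9%. Even at the greatest depth most cells thus had no count for Ms4a7 or Folr2, whereas few lacked Ms4a6c or Ms4a6d. The level of Ms4a7 itself was 9.55 CPM (4.37 to 18.1) in the shallowest group, 29.9 CPM (22.6 to 38.7) in the next shallowest, 17.1 CPM in the next to deepest and 12.1 CPM in the deepest. For Folr2 these levels were 9.55 (4.37 to 18.1), 23.6, 10.9 and 9.07 CPM. Level was thus not constant over depth, and both genes were low in the deepest group. The shallowest group rests on 9 counts for each gene. There the interval of Folr2 includes its level over all cells, 11.8 CPM, so a low shallow end is not shown for Folr2.

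**Figure D2:**
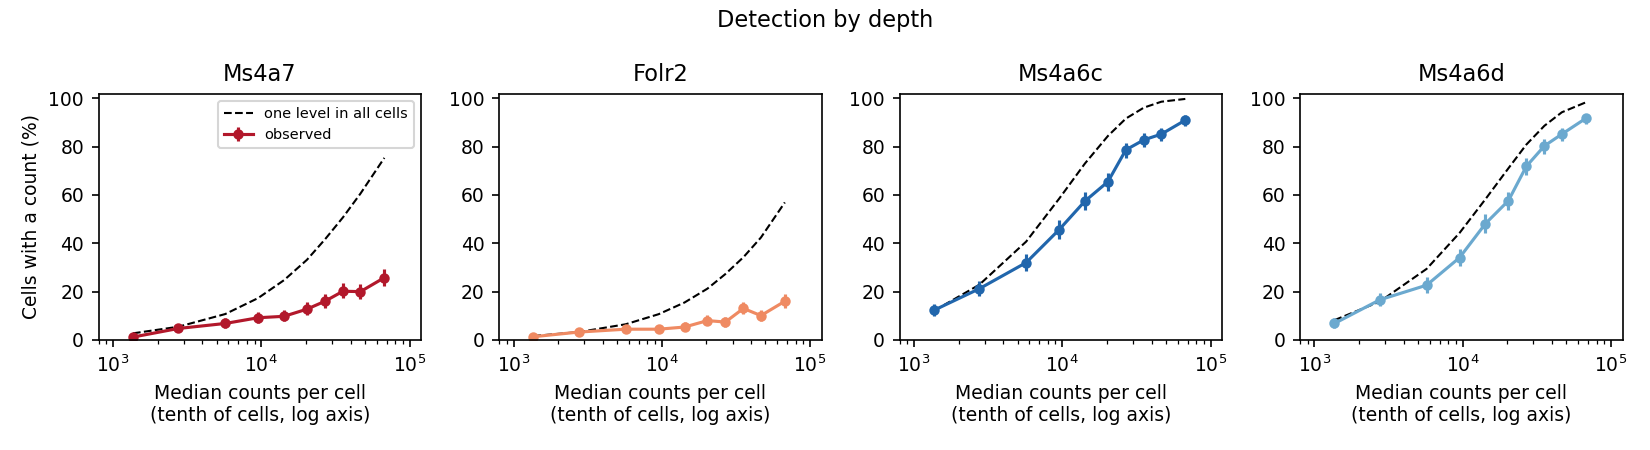
Share of cells with a count (per cent) against the median counts per cell (log axis) in 10 equal groups of cells by depth, for Ms4a7, Folr2, Ms4a6c and Ms4a6d. Bars are exact Clopper-Pearson intervals, and the dashed line is the share that a single level in all cells would give. Ms4a7 ends at 25.8% and Folr2 at 16.0%, far below the dashed line, while Ms4a6c ends at 91.0% and Ms4a6d at 91.7%.

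After thinning each cell to 5000 counts, with 1544 cells of lower depth dropped and 5207 kept, the shares were 31.7% for Ms4a6c, 23.8% for Ms4a6d, 11.2% for Ms4a6b, 5.70% for Ms4a7 and 3.36% for Folr2. Ms4a4a had a count in 29 of these cells and Ms4a4c in 5. At full depth 27.7% of the 6751 cells had a count for no member, 23.0% for 1, 21.4% for 2 and 18.1% for 3. A count for 5 members was found in 166 cells, for 6 in 16 cells, and for all 7 in 1 cell. After thinning 48.4% had none.

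Ms4a7 and Folr2 were found in the same cells more often than depth accounts for. Of 495 cells with Folr2, 236 had Ms4a7 as well, 47.7% of them and 27.7% of the cells with Ms4a7. From the shares of the genes within 20 groups of cells of like depth, 83.8 cells would be expected, a ratio of 2.82 (2.47 to 3.20). Of 10940 genes set against Ms4a7 in this way, 6.64% were found together at least 25% more often than expected, and of those set against Folr2 7.6% were. The ratio was 3.48 in the 3217 cells whose barcode name ends in N1, a mark whose meaning is not given in the sources used here. After thinning to 5000 counts, 64 cells had both where 9.98 would be expected.

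Of the 21 pairs of members, 17 had at least 10 expected cells, and 5 were found together at least 25% more often than expected. Besides Ms4a7 with Folr2 these were Ms4a7 with Ms4a4a at 1.99 (1.52 to 2.55), Ms4a4a with Folr2 at 1.68 (1.13 to 2.39), Ms4a7 with Ms4a6b at 1.37 and Ms4a6b with Folr2 at 1.31. That excess was reached by 5.21% of genes against Ms4a4a, 0.338% against Ms4a6b, 0.0183% against Ms4a6d and 0.00914% against Ms4a6c. The intervals of Ms4a6c and Ms4a6d with Ms4a4a and with Ms4a4c included 1. A ratio cannot exceed the number of cells with the rarer gene divided by the expected number. For genes found in most cells this leaves little room. For Ms4a6c with Ms4a6d, 2511 cells were expected of at most 3476, and 2695 were found. For Ms4a6c with Ms4a4c, 13.6 were expected of at most 17. The count of 5 pairs therefore does not show that Ms4a6c and Ms4a6d were weakly linked to other members. The Ms4a6 genes gave ratios of 1.07 to 1.16 among themselves. In the 5207 cells thinned to 5000 counts, with the expected number taken without depth groups, their ratios were 1.36 for Ms4a6c with Ms4a6d, 1.42 for Ms4a6b with Ms4a6d and 1.51 for Ms4a6b with Ms4a6c. Ms4a6c was found in 86.9% of the cells with Ms4a7 and in 82.8% of those with Folr2, against 57.2% of all cells. These shares are not matched for depth. Cells with Ms4a7 had a median of 32334 counts and those without it 15082, and for Folr2 the medians were 32781 and 16000.5. Within depth groups the ratio of Ms4a6c was 1.20 (1.12 to 1.29) with Ms4a7 and 1.16 (1.05 to 1.28) with Folr2.

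**Figure D3:**
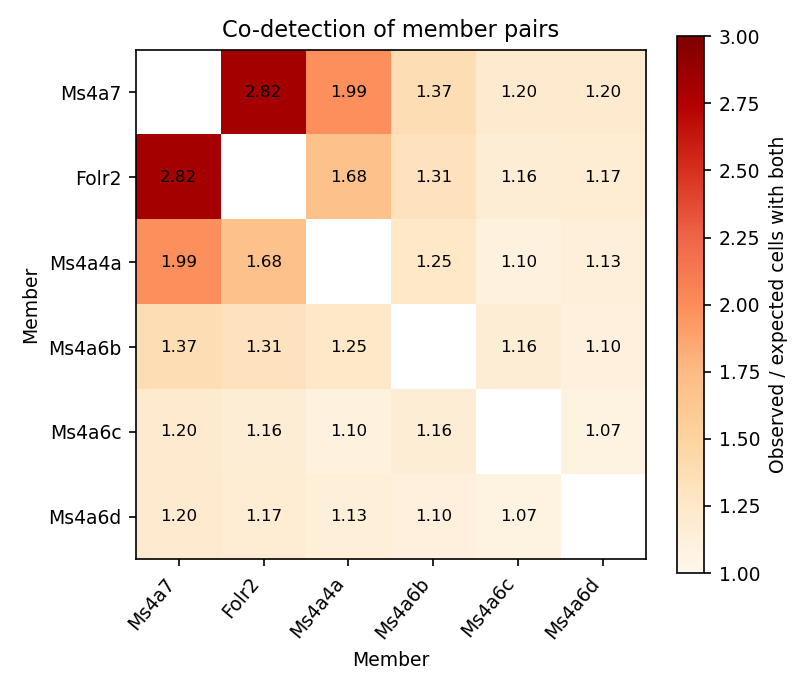
Cells with a count for both members of a pair, divided by the number expected from their shares within 20 depth groups, for the 6 members at 1 CPM or more. The value in each square is that ratio, and Ms4a7 with Folr2 stands highest at 2.82. Ms4a6b with Ms4a4a, rounded in the plot, lies just below an excess of 25%.

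The levels moved together as well. In the thinned cells Folr2 was at 6.48 CPM (5.51 to 7.57) where Ms4a7 had no count, at 50.5 CPM (37.4 to 66.8) where it had 1, and at 210 CPM (172 to 253) where it had 2 or more. Ms4a6b was at 23.0, 49.5 and 101 CPM in the same groups, Ms4a6c at 84.6, 187 and 303 CPM, and Ms4a6d at 53.3, 132 and 208 CPM. All 4 genes stood higher in cells with more Ms4a7, and Folr2 by the widest margin. These groups held 4910, 194 and 103 cells, with median full depths of 24631.5, 24332.5 and 22947 counts. Over all 6751 cells, the correlation of Pearson residuals (counts less the number expected from depth, scaled by their expected spread) was 0.47 for Ms4a7 with Folr2. It was 0.45 for Ms4a6b with Ms4a6c and 0.40 for Ms4a6c with Ms4a6d. Transcripts of Ms4a6b and Ms4a6c share 50-base words, and what reads of these add to their correlation was not tested. These cells are 1 sample, and the correlations are given as a description.

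Among 6651 genes at 10 CPM or more outside the members, those most like Ms4a7 by this correlation were Ctsb (0.63) and Ctsd (0.60), which encode lysosomal proteases, the selenoprotein gene Selenop (0.58), the apolipoprotein gene Apoe (0.58) and Timp2 (0.56), an inhibitor of matrix proteases. The lowest values were those of the translation factor gene Eif5a (-0.30), Snrpg (-0.29), of the spliceosome, and the ribosomal protein gene Rpl8 (-0.27). For Folr2 the highest were Timp2 (0.48), Ctsb (0.45), H2-D1 (0.45), Ctsd (0.44) and the interferon-inducible gene Ifi27l2a (0.44). Snrpg, Rpsa and Eif5a were lowest (-0.21, -0.21 and -0.20). Ctsb, Ctsd and Timp2 were thus among the 5 highest for both Ms4a7 and Folr2.

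For the Ms4a6 genes the correlations were weaker. Selenop (0.29), C1qc (0.28), Itm2b (0.27), Dab2 (0.27) and Mrc1 (0.27) led for Ms4a6b. Selenop (0.39), Itm2b (0.38), Ctsb (0.37), C1qc (0.37) and B2m (0.36) led for Ms4a6c. For Ms4a6d they were Ctsb (0.42), the complement receptor gene C3ar1 (0.41), C1qc (0.39), Itm2b (0.39) and Selenop (0.38). Selenop was among the 5 highest for Ms4a7 and for all 3 Ms4a6 genes, and C1qc, which encodes a chain of complement C1q, for all 3 Ms4a6 genes. The lowest values for Ms4a6b were Eif5a (-0.19), Snrpg (-0.18) and Shmt2 (-0.17). For Ms4a6c they were Snrpg (-0.26), Nhp2 (-0.25) and Eif5a (-0.25), and for Ms4a6d Snrpg (-0.28), Rpl36 (-0.24) and Eif5a (-0.24).

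All 6 members at 1 CPM or more rose with the summed share of a list of resident macrophage genes, Ms4a7 and Folr2 by far larger folds than the others. The 5207 cells with at least 5000 counts were ranked by the share of their counts from a list of 20 resident macrophage genes, 18 with a row, that holds no member, and parted into 4 equal groups. Median depths of these groups were alike, from 23350 to 24995.5 counts. The list was led by C1qc (382 CPM), C1qa (322), C1qb (260) and Pf4 (253), and the C1q genes are also among the macrophage markers used above. Its genes Lyve1, Cd163 and Timd4 were at 0.0249, 0.0125 and 0.218 CPM. A high rank by this list therefore does not by itself mark a resident macrophage. From the lowest group to the highest, Ms4a7 stood at 1.33, 3.26, 8.25 and 66.9 CPM. Folr2 stood at 0.453, 2.13, 5.19 and 38.8 CPM. Most of both genes' counts thus came from the highest group.

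The highest group exceeded the lowest 50.3-fold for Ms4a7 (37.7 to 68.6) and 85.8-fold for Folr2 (52.6 to 150), the latter from 16 counts in the lowest group. By this ratio Folr2 was number 2 and Ms4a7 number 4 of 10927 genes at 1 CPM or more, followed among the members by Ms4a6d at 327, Ms4a4a at 362, Ms4a6b at 397 and Ms4a6c at 521. Of these genes 13.5% reached 1.5 in this direction and 5.03% in the other, and the median ratio was 1.02. All 6 members at 1 CPM or more did so. Ms4a7 and Folr2 were chosen with it known that they led clusters of these cells, so their ranks add no independent support. Ms4a6d was at 38.0 and 103 CPM in the outer groups (2.71-fold), Ms4a6b at 18.0 and 45.7 CPM (2.54-fold) and Ms4a6c at 68.4 and 154 CPM (2.24-fold). Ms4a4a was at 0.877 and 2.30 CPM (2.62-fold, 1.73 to 4.09). With cells thinned to 5000 counts before ranking the Folr2 ratio was 53.0, and without the 3 C1q genes of the list all 6 members again reached 1.5.

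Within the highest of these groups Ms4a7 and Folr2 were still confined to part of the cells. Of its 1301 cells, 37.0% had a count for Ms4a7 and 24.8% for Folr2, with 0.496 and 0.415 of the cells that a single level in the group would give. Both genes were found in 195 of these cells, 1.55 times the 126 expected within 5 depth groups (1.34 to 1.78). In the lowest group 0 cells had both, where 0.623 would be expected. Ms4a6c was found in 81.9% of the highest group and 60.0% of the lowest.

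By gene, those of the resident list most often found with Ms4a7 were Cd5l (ratio 2.81), Cbr2 (2.41), Siglec1 (1.75), which encodes a sialic acid receptor of macrophages, and Gas6 (1.62), a bridging molecule in the uptake of dead cells. With Folr2 they were Cbr2 (2.81), Siglec1 (2.13), Gas6 (1.77) and Stab1 (1.61). Of 15 list genes with enough cells 10 showed an excess of 25% or more with Ms4a7, where 6.64% of all genes do. With Folr2 9 of 14 did, where 7.6% of all genes do. With Ms4a6b 2 of 15 did, where 0.338% of all genes do. With Ms4a6c and Ms4a6d 0 of 15 did, where almost no gene does (0.00914% and 0.0183%), so these counts do not tell resident genes from others. Several well-known partners of Folr2 in tissue macrophages were nearly without counts here, as Lyve1 was at 0.0249 CPM, Cd163 at 0.0125 CPM and Timd4 at 0.218 CPM. Vsig4 and Clec4f had no row.

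Ms4a7 and Folr2 were lower in cells with more counts from genes of immature myeloid cells. Cells were grouped in the same way by a list of 16 such genes, 13 with a row and led by the granule protease gene Prtn3 at 96.3 CPM. From the lowest group to the highest, Ms4a7 stood at 36.0, 20.3, 16.7 and 9.69 CPM. Folr2 stood at 22.6, 13.2, 8.83 and 3.60 CPM. The lowest group was 3.72-fold higher than the highest for Ms4a7 and 6.27-fold higher for Folr2, where 6.74% of genes reached 1.5 in this direction. The Ms4a6 genes showed little of this, with ratios of the highest to the lowest group of 1.11 for Ms4a6c, 1.09 for Ms4a6b and 0.901 for Ms4a6d. Ms4a4a rose from 0.910 to 1.49 CPM, a ratio of 1.64 (1.01 to 2.70), where 5.78% of genes reached 1.5. That ratio was 0.789 without Prtn3, F13a1 and Ly6c2 in the list.

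The lowest of these groups was shallower than the others, with a median of 15086.5 counts against 24485 to 34758.5, and 1245 of its 1302 cells had no count of the list. With all cells thinned to 5000 counts, the highest group was at 0.490 of the lowest for Ms4a7, against 0.269 without thinning, and at 0.344 for Folr2, against 0.159. Without the 5% of cells with the most counts the Folr2 value was 0.100. Of the list's genes 6 had enough cells for co-detection, and they did not all behave alike. The ratio of observed to expected cells with both genes was 0.493 for Ms4a7 with Ly6c2, 0.504 with Ctsg, 0.609 with Prtn3, 0.775 with Vcan and 0.854 with Ccr2, but 1.12 with F13a1, the second highest gene of the list. For Folr2 it was 0.374 with Ly6c2, 0.509 with Ctsg, 0.520 with Prtn3, 0.582 with Vcan, 0.693 with Ccr2 and 1.07 with F13a1.

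All 6 members were highest in the cells with the fewest G2 and M phase transcripts. Cells were grouped by 20 genes that act in mitosis, such as Ube2c and Top2a. From the lowest group to the highest, Ms4a7 stood at 58.3, 10.9, 8.78 and 9.98 CPM. Folr2 stood at 27.9, 8.79, 7.02 and 6.76 CPM. The step lay between the first group and the other 3, which differed little among themselves. Ms4a6c was at 141 CPM in the lowest group and between 77.1 and 83.8 CPM in the others.

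The highest group was at 0.171 of the lowest for Ms4a7 (0.155 to 0.189), the lowest ratio of 10922 genes, and at 0.243 for Folr2. For Ms4a4a it was at 0.524, for Ms4a6c at 0.554, for Ms4a6b at 0.570 and for Ms4a6d at 0.664. All 6 members were thus at least 1.5-fold higher in the lowest group, as were 4.78% of all genes. In the other direction 30.1% of genes reached 1.5, 34.9% in all, and the median ratio over all genes was 1.23. As the members were chosen with earlier results on these cells known, the rank of Ms4a7 is given as a description. The highest group was also the deepest, with a median of 32963 counts against 20746 in the lowest. With thinning to 5000 counts 5 of the 6 members passed 1.5-fold, Ms4a6d being at 0.689, and Ms4a4a was at 0.286. In barcodes ending in N1 4 of the 6 passed, with Ms4a6b at 0.726 and Ms4a6d at 0.682.

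**Figure D4:**
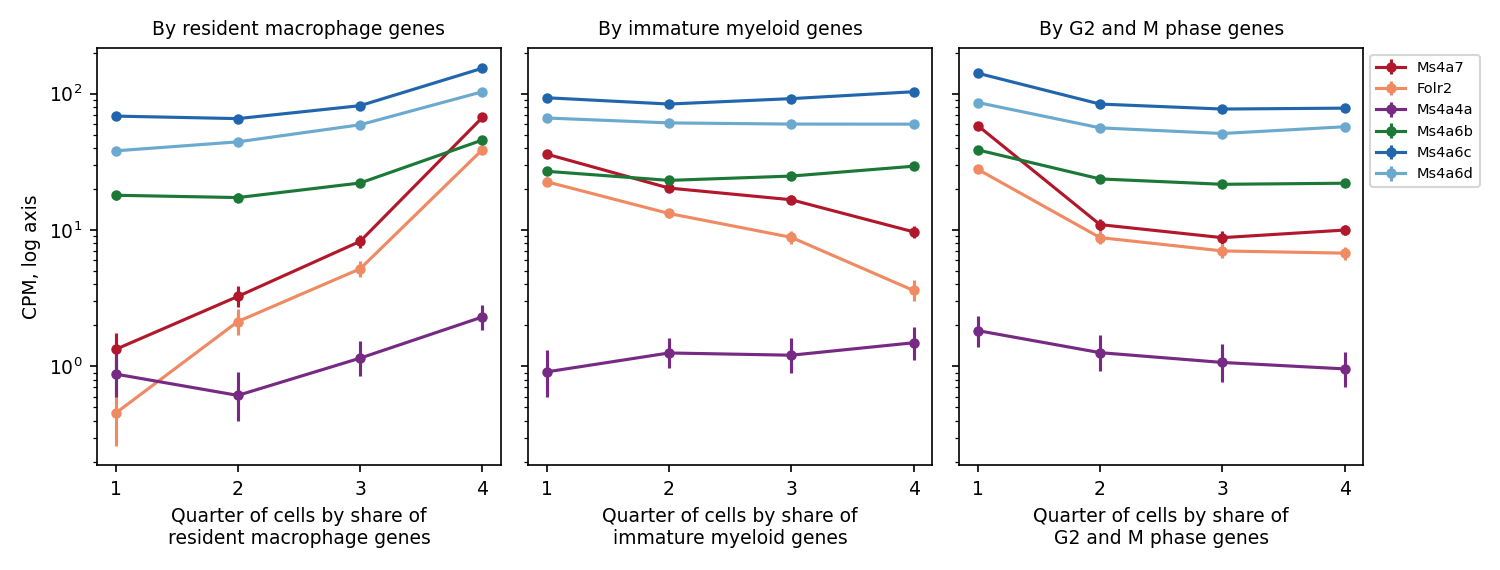
Member levels (CPM, log axis) in 4 equal groups of the 5207 cells with at least 5000 counts, ranked from low (1) to high (4) by the share of counts from resident macrophage, immature myeloid or G2 and M phase genes. Bars are exact Poisson intervals. Ms4a7 and Folr2 climb to 66.9 and 38.8 CPM in the left panel and fall in the other two, while the Ms4a6 genes change less.

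Member levels were also taken over clusters of cells, made without any Ms4a or Folr gene. Genes that vary with the members stayed in the clustering, so the clusters are not independent of them, and they are given by number. Of 9 clusters, cluster 2, with 1245 cells and a median depth of 24244 counts, held 74.3% of the Ms4a7 counts and 71.5% of the Folr2 counts in 18.4% of the cells. Its leading genes were Ms4a7, Ifit3, Rsad2, Folr2 and Fcgr4. The members were chosen with it known that Ms4a7 and Folr2 led clusters of these cells, so this adds no independent support. Ms4a7 was at 69.3 CPM (66.5 to 72.1) there, and Folr2 at 39.4 CPM (37.3 to 41.6).

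Each of the 6 members at 1 CPM or more was highest in cluster 2 among the 8 clusters of 50 cells or more, although for Ms4a4a several intervals overlapped. Ms4a7 was lowest in cluster 4, at 1.54 CPM (1.05 to 2.18), whose leading genes were Ly6c2, Ccr2, Prtn3, Ccnd2 and Btg2. In that cluster 3.73% of cells had a count for Ms4a7, at a median depth of 26547 counts, against 36.8% in cluster 2. Folr2 was lowest in cluster 6, at 0.724 CPM (0.313 to 1.43), and was at 1.11 CPM in cluster 4. Cluster 6 was led by Camk1d, Gm48099, D130009I18Rik, Tmtc2 and Jarid2.

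The Ms4a6 genes were found in each of these 8 clusters. Ms4a6c ranged from 57.7 CPM in cluster 1 to 152 CPM in cluster 2, and Ms4a6b from 14.8 CPM in cluster 5 to 43.4 CPM in cluster 2. Ms4a6d ranged from 29.0 CPM (18.6 to 43.2) in the shallow cluster 8 to 101 CPM in cluster 2. In the Prtn3 and Ly6c2 cluster 4, Ms4a6c was at 76.7 CPM and found in 503 of its 751 cells. Highest over lowest cluster, the folds were 44.9 for Ms4a7, 54.4 for Folr2, 3.47 for Ms4a6d, 2.94 for Ms4a6b and 2.64 for Ms4a6c. For Ms4a4a cluster 8 had 0 counts, with an upper limit of 4.46 CPM. A fold of 2 or more is common here, as 74.3% of all genes reached it. Clusters 1 and 8 were shallow, with medians of 3967.5 and 2252 counts, and cluster 9 had 25 cells.

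**Figure D5:**
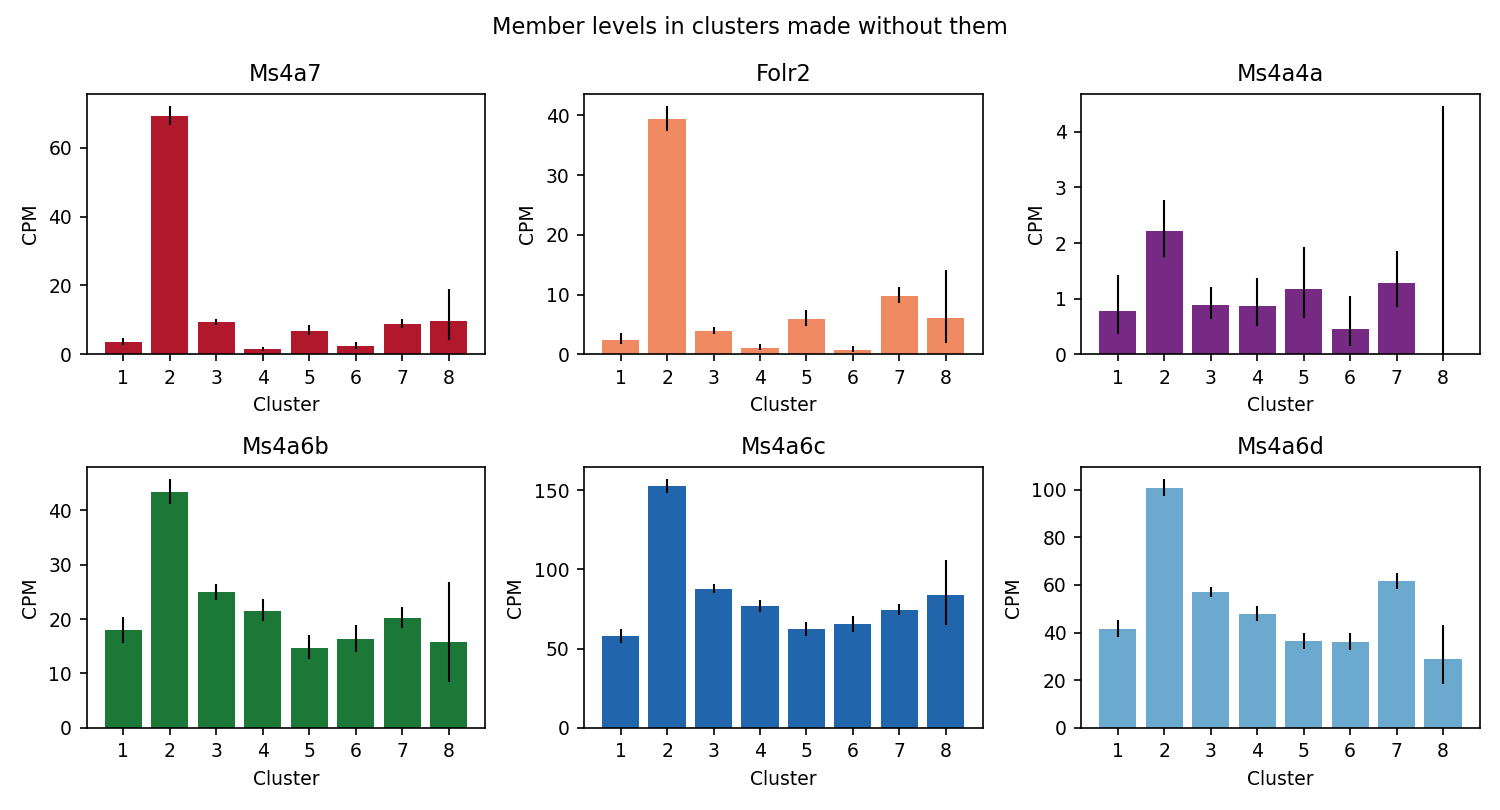
Level (CPM, axis from 0) of the 6 members at 1 CPM or more in the 8 clusters of at least 50 cells, with exact Poisson intervals as bars. Cluster 2 stands highest in every panel, at 69.3 CPM for Ms4a7 and 39.4 CPM for Folr2, and the Ms4a6 genes have counts in all 8.

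Of 5 genes for receptors and adaptors linked to Ms4a proteins, the adaptor genes Tyrobp and Fcer1g were at 5699.7 and 1502 CPM and Trem2 at 301 CPM. Clec7a, which encodes dectin-1, and Fcer1a had no row. Of 12 macrophage transcription factors 9 reached 10 CPM, led by Spi1 at 222 CPM. With Ms4a7, Tfec (ratio of cells 1.57), Nr1h3 (1.41) and Maf (1.31) exceeded the expected number by over 25%, and with Folr2 Nr1h3 (1.62) and Maf (1.29) did. Of all genes, 6.64% showed an excess of 25% or more with Ms4a7 and 7.6% with Folr2. Klf4 was at 0.732 with Ms4a7 and 0.701 with Folr2, and Batf3 at 0.769 and 0.793.

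Of 25 genes of folate uptake and use, 24 had a row and 13 reached 10 CPM. Shmt2 (258 CPM) and Mthfd2 (135 CPM), mitochondrial enzymes that move carbon units on folate, were highest. The reduced folate carrier gene Slc19a1 was at 49.2 CPM and the proton-coupled carrier gene Slc46a1 at 1.85 CPM. Cells with Folr2 had Aldh1l1 (ratio 2.30), Folr1 (1.54), Slc46a1 (1.49) and Mthfs (1.26) more often than expected. They had Slc19a1 (0.791), Shmt1 (0.737) and Aldh1l2 (0.733) less often. The other 15 of the 22 genes with enough cells lay between these values. An excess of 25% was thus shown by 4 of 22 genes, where 7.6% of all genes show it with Folr2. Ms4a7 gave much the same, with Aldh1l1 at 1.90, Folr1 at 1.47, Slc46a1 at 1.34 and Mthfs at 1.21. Its ratios were 0.813 with Slc19a1, 0.815 with Shmt1 and 0.780 with Aldh1l2, so the pattern is not particular to Folr2.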

How the data were processed

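The authors deposited 1 matrix of raw counts, whole numbers for each gene in each barcode, which PISA version 0.12 wrote, per the file headers. Per the submitters' processing notes, Cell Ranger and mm10 were used, in a role they do not state. Not given in the sources used here: the alignment, the annotation, the cell calling and whether unique molecular identifiers were counted. If they were of reads, intervals would be too narrow. Cells needed 500 genes and at most 15% mitochondrial counts, which 47 and 50 barcodes missed. No doublet caller was run, so doublets were left in.

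Members and lists were chosen with earlier results of these data known. CPM were computed from summed counts and carry exact Poisson intervals, and shares have exact Clopper-Pearson intervals. Ratios of outer groups have exact binomial intervals. Co-detection was called at 25% over the expected number and group ratios at 1.5. Clustering used scanpy 1.11.5 (2000 variable genes, 30 components, 15 neighbours, Leiden at resolution 0.5). Leading genes have the highest log2 ratio to other cells (pseudocount 1 CPM) among those at 10 CPM. Residuals used an overdispersion of 100. The rule named all members, the 2 to 6 highest genes of each list, and the 5 most and 3 least correlated genes. List genes named for their co-detection ratio were chosen after their values were seen. The co-detection ratio and the group ratio were tested on simulated data. The simulated links were too weak to test the co-detection call itself. Upstream sequences are from RefSeq on GRCm38.p6.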

Additional observations from a re-analysis of the deposited data

How the results depend on the processing

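Alternatives were other cell filters, leaving out the deepest 5% of cells, other denominators, thresholds, depth groups, thinning and group numbers. Barcodes ending in N1, lists without their 3 highest genes and a cluster resolution of 1.0 were added after the data had been seen. Of 44 summary counts under these, 40 stayed within 1.5 times. At a threshold of 20 CPM 3 members passed in place of 5. Of member pairs, 3 of 17 reached a ratio of 1.5 without thinning. After thinning to 5000 counts 9 pairs had 10 expected cells and all 9 showed an excess of 25%, in place of 5 of 17. The pairs of Ms4a7 and Folr2 with each other and with Ms4a4a then fell below 10 expected cells and were not counted. At a threshold of 2, 2 members differed by G2 and M phase genes in place of 6. Ratios by immature myeloid genes changed side of 1 without the list's 3 highest genes for Ms4a6b (0.926), Ms4a6d (1.02) and Ms4a4a (0.789), and for Ms4a6d after thinning (1.06), and the cause was not tested. Without ribosomal, mitochondrial and ribosomal RNA locus counts every level was higher by the same factor, with Ms4a7 at 32.9 CPM. After thinning the ratio of Ms4a7 with Ms4a6b was 2.26 and of Ms4a6d with Folr2 1.97. Members were then found in a smaller share of cells (Ms4a6c in 31.7% against 57.2%), so ratios could reach higher values. The cause of the rise was not tested. Few counts limit Ms4a4a (196) and Ms4a4c (17). No paired analysis was possible because the matrix is 1 sample and no test was run.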
